A study of Mus musculus with 2 samples.

Results

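The antioxidant genes described here are the transcription factor gene Nfe2l2, which encodes NRF2, and 9 genes known as its targets: Hmox1, Nqo1, Gclc, Gclm, Txnrd1, Prdx1, Srxn1, Gsr and Slc7a11. They were chosen by name, with earlier results of these data known, and all 10 were present among the 33757 features of the count table. NRF2 is held in the cytoplasm by KEAP1, which marks it for degradation. When oxidants or electrophiles modify KEAP1, NRF2 accumulates, pairs with small MAF proteins in the nucleus and binds antioxidant response elements upstream of its targets, where the repressor BACH1 competes for the same sites. The targets make glutathione (Gclc, Gclm, and Slc7a11 for cystine import), keep glutathione and thioredoxin reduced (Gsr, Txnrd1), remove peroxides (Prdx1, Srxn1), and detoxify quinones (Nqo1) and heme (Hmox1). Because NRF2 is controlled largely through its stability, the level of its transcript need not follow its activity.

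The cells were NIH3T3-Rev-VNP1-H2B-iRFP, a derivative of the mouse fibroblast line NIH3T3 with a Venus reporter of the clock repressor gene Nr1d1 and with H2B-iRFP, a nuclear label made from a histone and a near-infrared fluorescent protein. The 768 cells came from untreated, unsynchronized cultures at 95% confluency, about 5 days after seeding, and every cell carried both reporters. Single cells were sorted by FACS along 4 levels of Venus, called gates 1 (dimmest) to 4 (brightest) here, and along 2 levels of H2B-iRFP, then profiled by FLASH-seq, which sequences whole transcripts of each cell. All cells on plate 1 came from the high RFP sort and all those on plate 2 from the low one, so the iRFP level cannot be told apart from the plate. Every Venus gate took up 6 well columns, the same on each plate, so gate and position cannot be told apart either. The labels do not say whether the line is 1 clone or whether the plates came from separate cultures. The model removes the overall difference between the plates, so p-values measure only how the gate profiles differ between these plates. This spread may be technical or go with the RFP sort.

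After filtering, 762 cells with 151173 to 1618022 counts each remained, and their counts were added up into 8 sums, 1 per plate and gate, of 76042157 to 86612194 counts. No cell name was shared by the plates and no 2 cells had identical counts. The 8 fibroblast markers together held 20119 to 26436 CPM (counts per 1000000 of a sum's total) in the 8 sums, against 3.38 to 7.74 CPM for the 4 epithelial markers, 0.314 to 0.707 CPM for 2 endothelial markers and 0.118 to 0.795 CPM for 3 immune markers. Over all sums, Ptprc had 1 count, and Epcam and Krt18 had 2 counts each. Others of these lists were present: Cdh1 had 3057 counts, Pecam1 299, Cd68 211 and Krt8 128. The reporter followed its sort: the YFP feature stood at 19.5 and 23.7 CPM in gate 1 and at 678 and 685 CPM in gate 4 of plates 1 and 2.

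The sequences upstream of the start sites are shown first, because the antioxidant response element is what defines direct NRF2 targets. RefSeq promoter sequences (build GRCm38.p6) were matched by symbol for 7 of the 10 genes, with 9 start sites, and Hmox1, Gclc and Gsr were not matched. The 250 bases upstream of each start were searched on both strands for the core of the element, TGACNNNGC, and, added after the first search had been seen, for its variant TGAGNNNGC. The first form was found for Nfe2l2, Gclm, Prdx1 and 1 of the 3 starts of Txnrd1, and the second for Srxn1 and Slc7a11, so that 6 of the 7 genes had a match. Among all 32851 promoters, 10.2% held the first form, 14.4% the second and 23.0% either. Both forms are short, and a match is a description of letters rather than a binding site.

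The windows around the matches at which members differ are given 5′ to 3′ in the direction of the gene, with the matched letters in capitals. Distances are counted upstream from the start site.
Nfe2l2: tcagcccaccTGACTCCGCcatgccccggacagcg
Gclm: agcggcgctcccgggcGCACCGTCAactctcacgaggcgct
Txnrd1: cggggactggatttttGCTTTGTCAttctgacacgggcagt
Slc7a11: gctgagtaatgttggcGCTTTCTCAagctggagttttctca
The Nfe2l2 match reads forward and starts 240 bases upstream. The matches of Gclm (134 bases upstream), Txnrd1 (92) and Slc7a11 (97) lie on the opposite strand.

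For the 3 genes that rose along the Venus gates (below), the whole 250 bases are given, since their windows differ in what they hold. They lie at chr4:116685349-116685598 on the plus strand (Prdx1), chr2:152105274-152105523 on the plus strand (Srxn1) and chr8:107403206-107403455 on the minus strand (Nqo1). Capitals mark either form of the element core and, in Srxn1, also TAGGTCA, the binding sequence of Rev-erb proteins, which Nr1d1 encodes.
Prdx1: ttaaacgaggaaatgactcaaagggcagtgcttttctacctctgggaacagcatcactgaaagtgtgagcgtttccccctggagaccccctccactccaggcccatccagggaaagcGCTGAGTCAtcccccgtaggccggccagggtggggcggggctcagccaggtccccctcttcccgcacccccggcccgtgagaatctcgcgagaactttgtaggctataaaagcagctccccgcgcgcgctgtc
Srxn1: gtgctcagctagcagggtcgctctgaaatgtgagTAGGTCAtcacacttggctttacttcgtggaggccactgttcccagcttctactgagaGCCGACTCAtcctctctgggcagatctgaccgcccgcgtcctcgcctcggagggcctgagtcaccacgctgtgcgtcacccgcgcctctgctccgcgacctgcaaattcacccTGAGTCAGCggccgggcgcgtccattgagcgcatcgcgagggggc
Nqo1: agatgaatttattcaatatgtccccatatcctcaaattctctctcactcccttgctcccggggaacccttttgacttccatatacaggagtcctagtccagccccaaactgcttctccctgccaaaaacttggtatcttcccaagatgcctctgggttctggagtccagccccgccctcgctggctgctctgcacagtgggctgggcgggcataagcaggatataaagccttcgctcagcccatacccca
Prdx1 held 1 match, 133 bases upstream. Srxn1 held 2 matches of the second form, 158 and 45 bases upstream, and TAGGTCA at 216 bases, a sequence found in 2.23% of all promoters. The Nqo1 window held neither form, which says only that these letters are not in these 250 bases. The E-box CACGTG, the binding sequence of the circadian activators CLOCK and BMAL1, was in none of the 9 windows and in 6.02% of all promoters.

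Per kilobase of exon, the members differed widely in level. Prdx1 was highest at 375 CPM per kilobase (mean of the plates), followed by Nqo1 at 230, Nfe2l2 at 41.2 and Srxn1 at 24.7. Txnrd1 (16.9), Gsr (16.3) and Hmox1 (16.1) could not be ordered, since their plate values overlapped. Gclm followed at 10.6, Gclc at 2.45 and Slc7a11 at 0.584 CPM per kilobase. The peroxide enzyme Prdx1 and the quinone enzyme Nqo1 thus headed the order, and Gclc and Slc7a11, which serve glutathione synthesis, closed it.

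Along the Venus gates, Nqo1, Prdx1 and Srxn1 rose toward bright Venus, and the other 7 genes were not called. Of the 10 genes, 3 rose and 0 fell at an adjusted p under 0.05 (edgeR's quasi-likelihood test, linear trend over the gates). Among all 18430 genes tested, 6.78% rose, 8.64% fell and 15.4% were called in either direction. The members' median trend was 0.04 log2 per gate step, against 0.0005 for all genes tested. Positive trends were found for 9 of the 10, beside 9254 of the 18430 genes tested. The members' median was 0.09 on plate 1 and 0.01 on plate 2. When any difference among the gates was tested instead, Nqo1 and Prdx1 were called, against 8.37% of all genes. Between the brightest and the dimmest gate alone, Nqo1, Prdx1 and Srxn1 were higher in the brightest, and none was lower, against 5.85% higher and 7.67% lower among all genes.

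**Figure D1:**
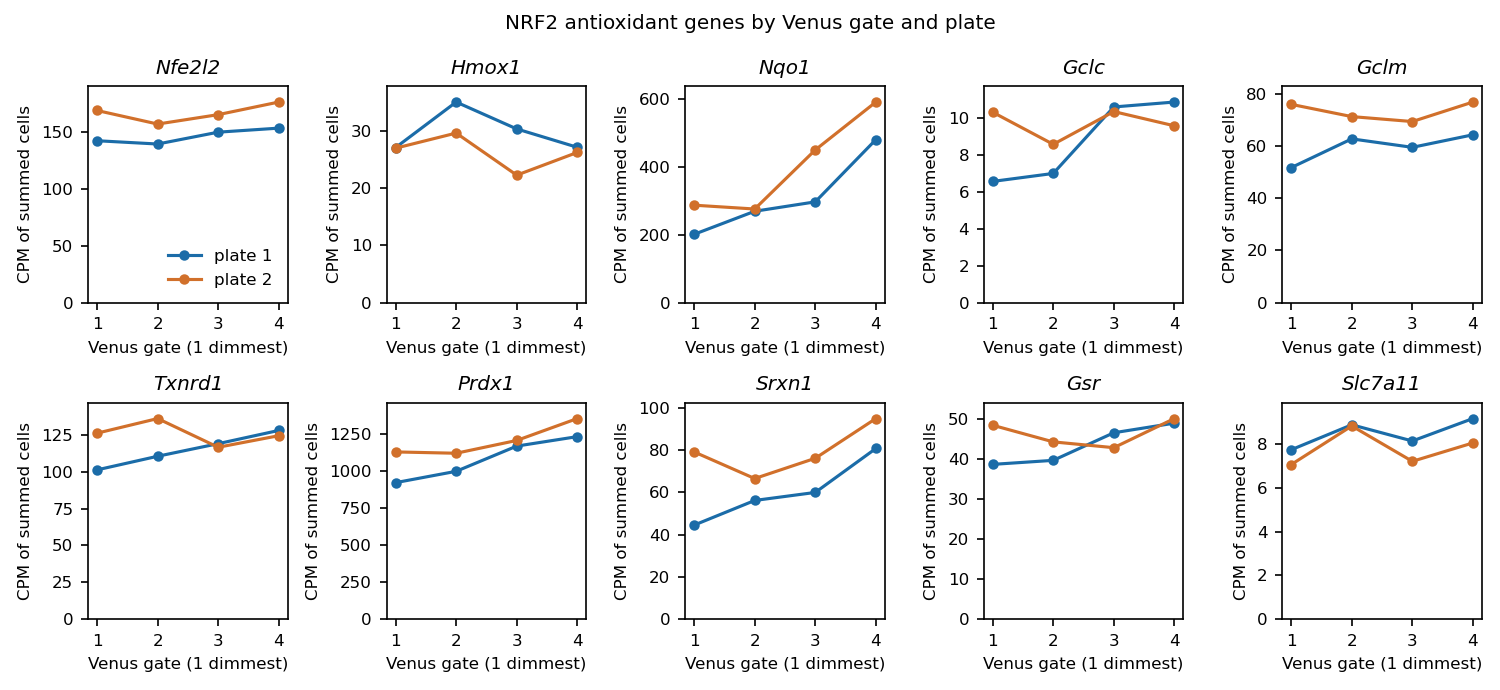
Level of each of the 10 genes (CPM of the summed cells, vertical axes from 0, a different scale per gene) against the Venus gate, 1 point per sum, with plate 1 in blue and plate 2 in orange. Nqo1 climbs from 202 and 288 CPM in gate 1 to 481 and 592 CPM in gate 4. Highest in gate 4 on both plates are Nqo1, Prdx1 and Srxn1, which were called, and Nfe2l2, Gclm and Gsr, which were not. The share of all genes with this order was not counted.

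Nqo1 (ENSMUSG00000003849.9) encodes NAD(P)H quinone dehydrogenase, a widely used readout of NRF2 activity. Its level was 202, 270, 297 and 481 CPM in gates 1 to 4 of plate 1 and 288, 276, 451 and 592 CPM in gates 1 to 4 of plate 2. Both gate 4 sums lay above the other 6 sums. Gate 4 averaged 537 ± 78.5 CPM (SD, n = 2 plates) and gate 1 245 ± 60.8 CPM, and the ratio of gate 4 to gate 1 was 2.39 on plate 1 and 2.06 on plate 2. The trend was 0.37 ± 0.04 log2 per gate step (SE, adjusted p = 0.00208, edgeR), and was 0.36 on plate 1 and 0.37 on plate 2. Of the 10 genes it had the largest trend and the closest pair of plate values among those called.

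Prdx1 (ENSMUSG00000028691.13) encodes a peroxiredoxin that reduces hydrogen peroxide with electrons from thioredoxin. It stood at 921, 997, 1167 and 1231 CPM in gates 1 to 4 of plate 1 and at 1128, 1119, 1206 and 1353 CPM on plate 2. The gate 4 sums were again above the other 6 sums, but the step was small, at 0.28 ± 0.05 log2 (SE) between gate 4 and gate 1. Its trend was 0.10 ± 0.02 log2 per gate step (SE, adjusted p = 0.00739, edgeR), and the plates alone gave 0.12 and 0.08. Without the sum of plate 1 gate 4 the adjusted p was 0.0653 by edgeR, at the same trend of 0.10.

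Srxn1 (ENSMUSG00000032802.9) encodes sulfiredoxin, which restores overoxidized peroxiredoxins. Its 8 values were 44.5, 56.1, 59.9 and 80.7 CPM on plate 1 and 79.1, 66.5, 76.1 and 94.9 CPM on plate 2, in the order of the gates. Gate 4 was highest on each plate, while on plate 2 gates 1 to 3 showed no steady order. The trend was 0.16 ± 0.04 log2 per gate step (SE, adjusted p = 0.0374, edgeR), and the plates alone gave 0.24 and 0.09. This call was the least firm of the 3. With the plate term left out the trend was 0.15 and the adjusted p 0.205 by edgeR, and leaving out single sums lost the call for plate 1 gates 1, 3 and 4 and plate 2 gates 2, 3 and 4, with adjusted p-values of 0.0606 to 0.220 and trends down to 0.09 (without plate 1 gate 1).

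Other groups of genes moved with these gates. Of 18 S phase genes 9 rose and of 18 G2/M genes 6 rose, with none falling in either list. Their summed levels ranged from 276 to 534.5 CPM (S phase) and from 298 to 771 CPM (G2/M) over the sums, and averaged 308 and 414 CPM in gate 1 against 520 and 719 CPM in gate 4. The median trend of the G2/M genes was 0.39 log2 per gate step on plate 1 and -0.02 on plate 2, and that of the S phase genes 0.40 and 0.17. Of the 8 fibroblast markers 5 fell and 2 rose. The part of these groups in the members' trends was tested only as follows. In 247 cells that were below their plate's median for both cycle lists, 15 to 41 per sum, the trends were 0.29 for Nqo1, 0.08 for Prdx1 and 0.16 for Srxn1, and edgeR gave adjusted p-values of 0.0667, 0.111 and 0.193. None of the 10 genes was called there, beside 2.06% of 15416 genes. An unadjusted p under 0.05 (edgeR) was found for 3 of the 10 and for 2927 of the 15416. These sums held fewer cells than the full ones, and the loss was uneven. Gate 1 kept 37 and 40 cells on plates 1 and 2, and gate 4 kept 18 and 15.

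The factor itself, Nfe2l2 (ENSMUSG00000015839.7), was not called. It stood at 142, 139, 150 and 153 CPM in gates 1 to 4 of plate 1 and at 169, 157, 165 and 176 CPM on plate 2. Every plate 2 value lay above every plate 1 value, and gate 4 was highest on both plates. The trend was 0.02 ± 0.02 log2 per gate step (SE, adjusted p = 0.523, edgeR).

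Gclc and Gclm encode the catalytic and the modifier subunit of glutamate-cysteine ligase, the enzyme that limits glutathione synthesis. Gclc (ENSMUSG00000032350.10) had 6.56, 6.99, 10.6 and 10.9 CPM in gates 1 to 4 of plate 1, but 10.3, 8.57, 10.3 and 9.57 CPM on plate 2. Its trend was 0.25 log2 per gate step on plate 1 and -0.01 on plate 2, and 0.12 ± 0.06 (SE) over both (adjusted p = 0.242, edgeR). Gclm (ENSMUSG00000028124.17) stood at 51.7, 62.7, 59.4 and 64.2 CPM on plate 1 and at 75.9, 71.2, 69.3 and 76.8 CPM on plate 2, with a trend of 0.02 ± 0.03 and an adjusted p of 0.618 by edgeR. Gclm was higher on plate 2 than on plate 1 in every gate, and on both plates it was highest in gate 4.

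Txnrd1 (ENSMUSG00000020250.12), the reductase of cytosolic thioredoxin, had 101, 110, 119 and 128 CPM in gates 1 to 4 of plate 1 and 126, 136, 117 and 124 CPM on plate 2. Its values increased at every step on plate 1, with a trend of 0.09, and gave -0.04 on plate 2, so that over both plates the trend was 0.02 ± 0.03 log2 per gate step (SE), adjusted p = 0.637 by edgeR. Gsr (ENSMUSG00000031584.17), the reductase of oxidized glutathione, had 38.6, 39.7, 46.5 and 49.0 CPM on plate 1 and 48.4, 44.3, 42.8 and 50.1 CPM on plate 2. It was thus highest in gate 4 on both plates, but its trend of 0.05 ± 0.03 was not called (adjusted p = 0.329, edgeR).

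Hmox1 (ENSMUSG00000005413.9) encodes heme oxygenase 1, which breaks down heme to biliverdin, iron and carbon monoxide. It was the only member with a trend below 0, at -0.05 ± 0.03 log2 per gate step (SE), adjusted p = 0.366 by edgeR. The values were 27.1, 35.1, 30.4 and 27.2 CPM in gates 1 to 4 of plate 1 and 27.0, 29.6, 22.3 and 26.3 CPM on plate 2. Gate 2 was highest on both plates, and gates 1 and 4 were nearly equal on each. The test of any difference among the gates did not call this shape (adjusted p = 0.207, edgeR).

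Slc7a11 (ENSMUSG00000027737.11), the transport subunit of the cystine-glutamate antiporter, had 7.75, 8.89, 8.15 and 9.17 CPM in gates 1 to 4 of plate 1 and 7.07, 8.83, 7.22 and 8.06 CPM on plate 2. The trend was 0.03 ± 0.04 log2 per gate step (SE, adjusted p = 0.690, edgeR). Its counts are uncertain for a reason of sequence: in the reference annotation, 1 of its transcripts holds a stretch of 482 bases that is 93.6% identical to Tuba1c, and 585 bases at 92.5% to Tuba1b, both abundant tubulin genes. Prdx1 resembles a pseudogene, Gm7204, over 597 bases, and that pseudogene itself had 4.53 and 5.00 CPM. A short transcript of Gclm matches Ppia over 287 bases at 97.9% identity, and Gclm shares 296 exon bases with the opposite-strand gene Gm17494, so these counts are uncertain too, since the use of strand in counting is not given in the sources used here. No transcript of another gene matched Nfe2l2, Hmox1, Nqo1, Gclc, Txnrd1 or Gsr over at least 75 bases at 90% identity. Srxn1 had 1 such match, to the G2/M gene Top2a over 84 bases at 90.5% identity.

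The other genes of the pathway were read from lists written by hand around the members, with earlier results of these data known. Their counts describe these lists and are not independent support. Among 86 tested, 22 rose and 11 fell toward bright Venus, with a median trend of 0.04 log2 per gate step, equal to that of the members, beside 6.78% and 8.64% of all genes. Scaled by library totals without TMM, 27 rose and 7 fell, and the share of rises among all genes called was 57.8% in place of 44.0%. With the plate term left out 19 were called instead of 33, beside 9.13% of all genes. In the cells low in cycle genes 6 were called.

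Of 15 regulators of NRF2, 0 rose and 2 fell. Keap1, which targets NRF2 for degradation, was at 21.0, 18.5, 18.1 and 17.9 CPM in gates 1 to 4 of plate 1 and at 23.2, 20.4, 18.4 and 18.1 CPM on plate 2. It fell by 0.11 ± 0.03 log2 per gate step (SE), adjusted p = 0.0278 by edgeR, and the value was lowest in gate 4 on both plates. The call was lost in 9 of 17 alternatives, where the trend lay between -0.20 and -0.10 and adjusted p-values (edgeR) reached 0.153. They include 7 of the 8 fits that leave out 1 sum, all but that without plate 1 gate 3. Nfe2l1, a related factor that controls proteasome genes, changed by -0.09 ± 0.02 (adjusted p = 0.0206 by edgeR), and lost its call in 5 of 17 alternatives, among them without plate 1 gate 1 and without plate 1 gate 4. Bach1, the repressor at antioxidant response elements, was not called, at -0.02 ± 0.03 (adjusted p = 0.716, edgeR).

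Of the 21 glutathione genes tested, 2 rose and 4 fell. Gss, glutathione synthetase, rose by 0.14 log2 per gate step and Gstm1, a glutathione transferase, by 0.09. Another transferase, Gsta4, fell by 0.13, the glutaredoxin Glrx2 by 0.11 and the neutral amino acid transporter Slc1a4 by 0.13. Of 17 alternatives, the call was lost in 11 for Slc1a4, 6 for Gstm1, 5 for Gss, 5 for Gsta4 and 3 for Glrx2. All 5 lost it without plate 1 gate 4 and in the cells low in cycle genes, where the trend of Gsta4 was -0.03, and all but Glrx2 lost it with the plate term left out.

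Among 16 other thioredoxin and peroxidase genes, 4 rose and 2 fell. The superoxide dismutase Sod1 rose from 71.6 and 77.9 CPM in gate 1 to 109 and 116 CPM in gate 4, at 0.18 ± 0.02 log2 per gate step (SE), adjusted p = 0.0013 by edgeR. Txn1, the thioredoxin that Txnrd1 reduces, rose by 0.11 and the mitochondrial dismutase Sod2 by 0.11. Txnip, which binds and inhibits thioredoxin, fell by 0.27 ± 0.03, from 150 and 141 CPM in gate 1 to 96.4 and 83.1 CPM in gate 4. Prdx2 fell by 0.07, a call that was lost in 9 of 17 alternatives, and the call of Sod2 was lost in 3, among them without plate 1 gate 1 and without plate 1 gate 4.

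Genes that supply NADPH, which the reductases above consume, were called more often upward than downward: 4 of 8 rose and 1 fell. Malic enzyme Me1 rose from 57.6 and 69.9 CPM in gate 1 to 104 and 109 CPM in gate 4, at 0.22 ± 0.02 log2 per gate step (SE), adjusted p = 0.00123 by edgeR. Taldo1 rose by 0.12 and G6pdx, which opens the pentose phosphate pathway, by 0.11. Pgls, the next enzyme of that pathway, fell by 0.09 and lost its call in 6 of 17 alternatives. G6pdx lost its call in 4 of 17, namely in the cells low in cycle genes (0.07, edgeR adjusted p = 0.393) and without plate 1 gate 1, plate 1 gate 4 or plate 2 gate 4, where its trend was 0.10 to 0.12.

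Of 10 genes of heme and iron handling, 5 rose and 1 fell. Tfrc, the transferrin receptor that brings iron in, rose by 0.41 ± 0.03 log2 per gate step (SE), from 8.92 and 11.7 CPM in gate 1 to 21.5 and 27.1 CPM in gate 4. Ftl1, the light chain of the iron store ferritin, rose by 0.20 ± 0.02, and the heme transporter Slc48a1 by 0.18. Slc40a1, the iron exporter ferroportin, fell by 0.30 ± 0.05, from 27.96 and 40.7 CPM to 17.5 and 21.6 CPM, and its call was lost in the cells low in cycle genes and without plate 1 gate 4 (edgeR adjusted p = 0.0829). Ftl1 and Slc40a1, both known NRF2 targets, changed in opposite directions, and the cause was not tested.

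Of 16 detoxification genes, 7 rose and 1 fell. The aldose reductase Akr1b3 went from 60.9 and 64.0 CPM in gate 1 to 157 and 150 CPM in gate 4, a rise of 0.42 ± 0.03 log2 per gate step (SE), adjusted p = 0.000428 by edgeR. The epoxide hydrolase Ephx1 rose by 0.35 ± 0.03 and the carbonyl reductase Cbr3 by 0.23. Akr1c13 fell by 0.53 ± 0.07, and this fall was a single step: it stood at 16.5 and 23.9 CPM in gate 1 and at 5.41 to 7.86 CPM in gates 2 to 4 of both plates. In the cells low in cycle genes its trend was -0.18 (adjusted p = 0.445, edgeR).

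The targets of ATF4, a stress factor that also acts on Slc7a11, were read beside these lists. Of 15 tested, 2 rose and 5 fell, with a median trend of -0.05 log2 per gate step. Trib3 fell by 0.40 ± 0.03 and stood at 130 and 84.4 CPM in gate 1 and 62.2 and 39.8 CPM in gate 4. Cth fell by 0.35 and Ddit4 by 0.27. Psat1 of serine synthesis rose by 0.15, and Asns by 0.07, a call lost in 10 of 17 alternatives. In the cells low in cycle genes, Cth stood at 0.12 and Trib3 at -0.03, and neither was called.

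**Figure D2:**
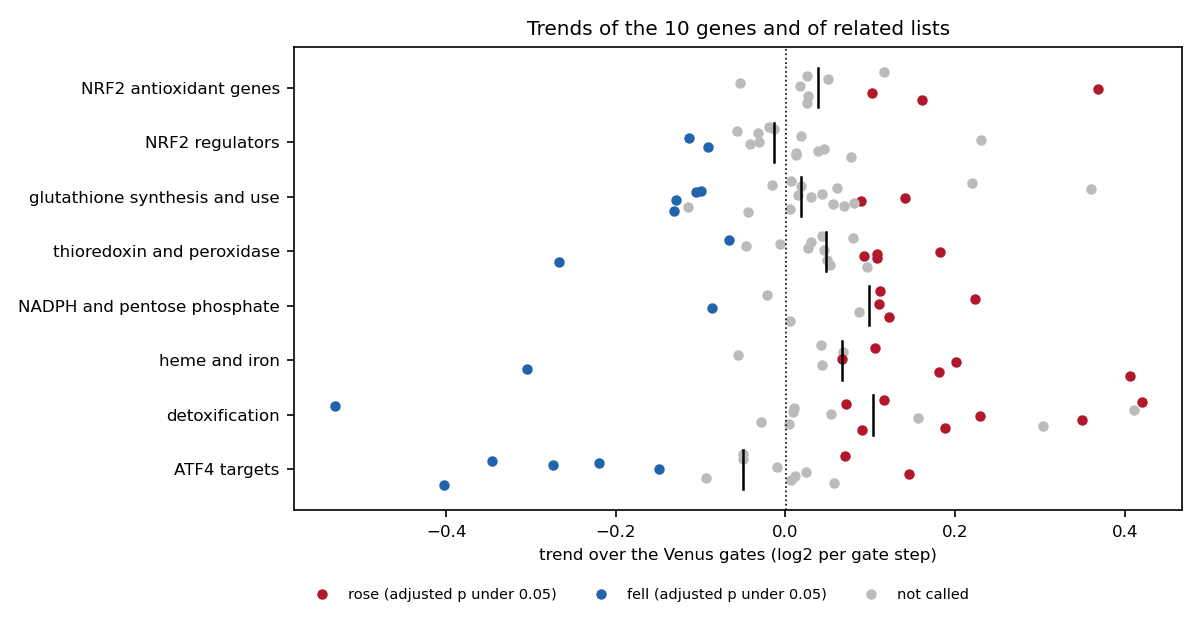
Trend over the Venus gates (log2 per gate step, horizontal axis) of each of the 10 genes in the top row and of the other genes of 7 related lists below, with rises called in red, falls called in blue and uncalled genes in grey. Short vertical lines mark list medians and the dotted line the median of all genes tested, and Nqo1 at 0.37 stands apart from the other 9 genes of the top row.

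Of the 29 pathway and ATF4 genes named here for their calls, 6 were called in every alternative tried: Sod1, Txnip, Me1, Ftl1, Akr1b3 and Ddit4. A further 7 were lost only in the cells low in cycle genes. Leaving out 1 of the 8 sums lost the call of 14.

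Plate 1, the high RFP sort, and plate 2, the low RFP sort, were compared with 1 sample each and no replicate check, so no test was made. Intervals cover counting error only: amplified reads are not separate molecules where no molecular identifiers are stated. Over whole plates, 8 of the 10 genes had a higher level on plate 2. That share was not counted for all genes tested, whose median log2 ratio of plate 1 to plate 2 was -0.06. Srxn1 stood at 60.2 CPM on plate 1 and 79.2 CPM on plate 2, a ratio of plate 1 to plate 2 of 0.760 (exact binomial 95% interval 0.746 to 0.775). For Nqo1 the plates gave 311 and 404 CPM, a ratio of 0.770 (0.764 to 0.777), and for Gclm 59.6 and 73.2 CPM, a ratio of 0.814 (0.798 to 0.830). Nfe2l2 was at 146 and 167 CPM, a ratio of 0.876 (0.865 to 0.887). Hmox1 at 30.1 and 26.2 CPM and Slc7a11 at 8.49 and 7.77 CPM were the 2 genes with more on plate 1.

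All 10 ratios lay within the central 95% of genes. The members' median log2 ratio of plate 1 to plate 2 was -0.15, against -0.06 for all genes tested, and that central range ran from -0.93 to 0.75. The differences were uneven over the gates. In gate 1 the log2 ratio was -0.83 for Srxn1, -0.65 for Gclc, -0.55 for Gclm and -0.51 for Nqo1, and in gate 4 it was -0.23, 0.18, -0.26 and -0.30. For Nqo1 it was largest in gate 3 (-0.60) and smallest in gate 2 (-0.04), while Srxn1, Gclc and Gclm had their largest difference in gate 1. The sum of plate 1 gate 1 held the lowest of the 8 values for 7 of the 10 genes. How often this held among all genes was not counted, so it is not a trait of these genes.

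Single cells were then examined, as a description without tests, since cells of 1 plate share a library preparation. Nqo1 varied more between cells than any other member but Gclc. On plate 1 the central 80% of cells ran from 60.5 to 751 CPM, with a coefficient of variation of 96.2%, and on plate 2 from 74.9 to 928 CPM, with 89.9%. Prdx1, which was higher still, varied far less, at 30.0% and 34.3%, and Nfe2l2 lay between, at 40.5% and 38.2%. All cells had Nqo1, Prdx1 and Nfe2l2 counts. Gclc, at a median of 4 and 5 counts per cell, was detected in 69.7% and 66.5% of cells, and in 62.0% and 63.9% of the 382 and 371 cells that could be thinned to 400000 counts.

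The Nqo1 distribution changed differently along the gates of the plates. In plate 1 the 10th percentile was 70.9 CPM in gate 1 and 64.1 CPM in gate 4, while the 90th percentile was 353 and 980 CPM. In plate 2 the 10th percentile was 70.9 and 157 CPM and the 90th percentile 485 and 1125 CPM. The coefficient of variation in gates 1 to 4 was 57.4%, 98.0%, 98.1% and 80.7% on plate 1 and 96.9%, 87.8%, 81.2% and 72.8% on plate 2. Of the 39 plate 1 cells in the top 10% for Nqo1, 0 came from gate 1, 6 from gate 2, 11 from gate 3 and 22 from gate 4. On plate 2 the 38 such cells divided into 3, 1, 12 and 22.

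**Figure D3:**
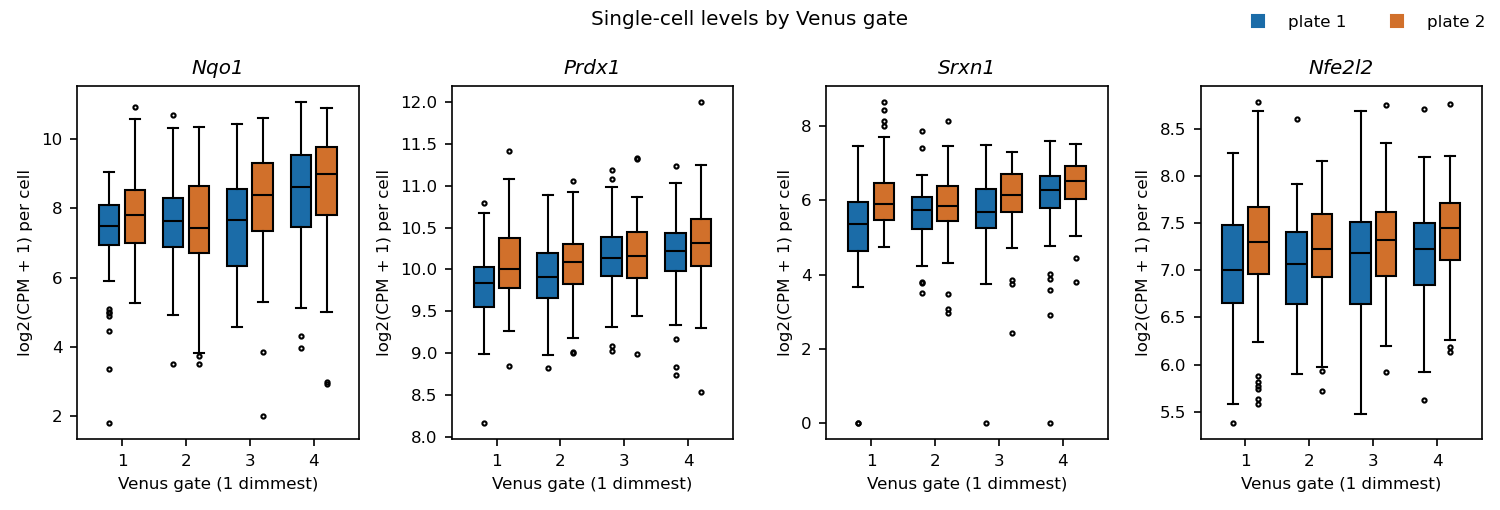
Level per cell, log2(CPM + 1), of Nqo1, Prdx1, Srxn1 and Nfe2l2 by Venus gate, with boxes for the quartiles, a line for the median, whiskers to the last cell within 1.5 times the box length and points beyond, in blue for plate 1 and orange for plate 2. The Nqo1 boxes are tall in every gate and highest in gate 4, while the Prdx1 boxes are narrow and shift by a small step.

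Across all cells of a plate, Venus fluorescence had a Spearman correlation with Nqo1 of 0.25 on plate 1 (383 cells) and 0.33 on plate 2 (379 cells). Prdx1 gave 0.38 and 0.22, and Srxn1 0.36 and 0.26. Once both measures were ranked within each gate, the values were 0.04 and 0.05 for Nqo1, 0.02 and 0.01 for Prdx1, and 0.02 and -0.02 for Srxn1. These pooled ranks joined gates of opposite sign. In gate 1 of plate 2 (95 cells) the correlation with Venus was -0.36 for Prdx1 and -0.34 for Srxn1, and in gate 1 of plate 1 (95 cells) -0.10 and 0.0076. In gate 3 it was 0.17 and 0.25 for Nqo1 on plates 1 and 2 and 0.21 and 0.13 for Prdx1, and in gate 4 -0.13 and -0.05 for Nqo1. Prdx1 also correlated with the mean rank of the G2/M genes, at 0.32 and 0.37, and with that of the fibroblast markers, at -0.35 and -0.52. For Gclm, whose trend over the gates was not called, these values were 0.33 and 0.32 for G2/M genes and -0.39 and -0.42 for fibroblast markers. CPM values in a cell share 1 total, so they are not free to move apart.

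The members correlated weakly with each other. The median Spearman correlation of the 45 pairs was 0.11 on plate 1 and 0.17 on plate 2. All 39930516 pairs of the 8937 genes with a mean of at least 8 CPM had medians of 0.0096 and 0.0060, with 2.5% of pairs above 0.19 on each plate. Of the member pairs, 11 and 16 lay above that level, and 35 and 37 were positive. The pairs of all genes were not matched to the members in level. Slc7a11, at a mean of 7.93 CPM on plate 2, was itself below the limit of 8 CPM. The members' medians were 0.10 and 0.15 when cells were ranked within gates, and 0.10 and 0.15 after cells were thinned to 400000 counts.

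The strongest pairs joined the peroxide and reductase genes. Prdx1 with Srxn1 gave 0.30 and 0.41, Prdx1 with Gsr 0.31 and 0.39, and Txnrd1 with Gsr 0.30 and 0.31. Nqo1 correlated with Srxn1 at 0.25 on both plates and with Prdx1 at 0.22 and 0.25, but its values with Txnrd1 were -0.16 and -0.05. Hmox1 stood away from the rest: with Nqo1 it gave -0.09 and -0.14, with Srxn1 -0.10 and -0.09, and no pair with Hmox1 exceeded 0.10 on either plate. Nfe2l2 was nearest to Srxn1 (0.17 and 0.22), Txnrd1 (0.18 and 0.17) and Nqo1 (0.15 and 0.19).

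**Figure D4:**
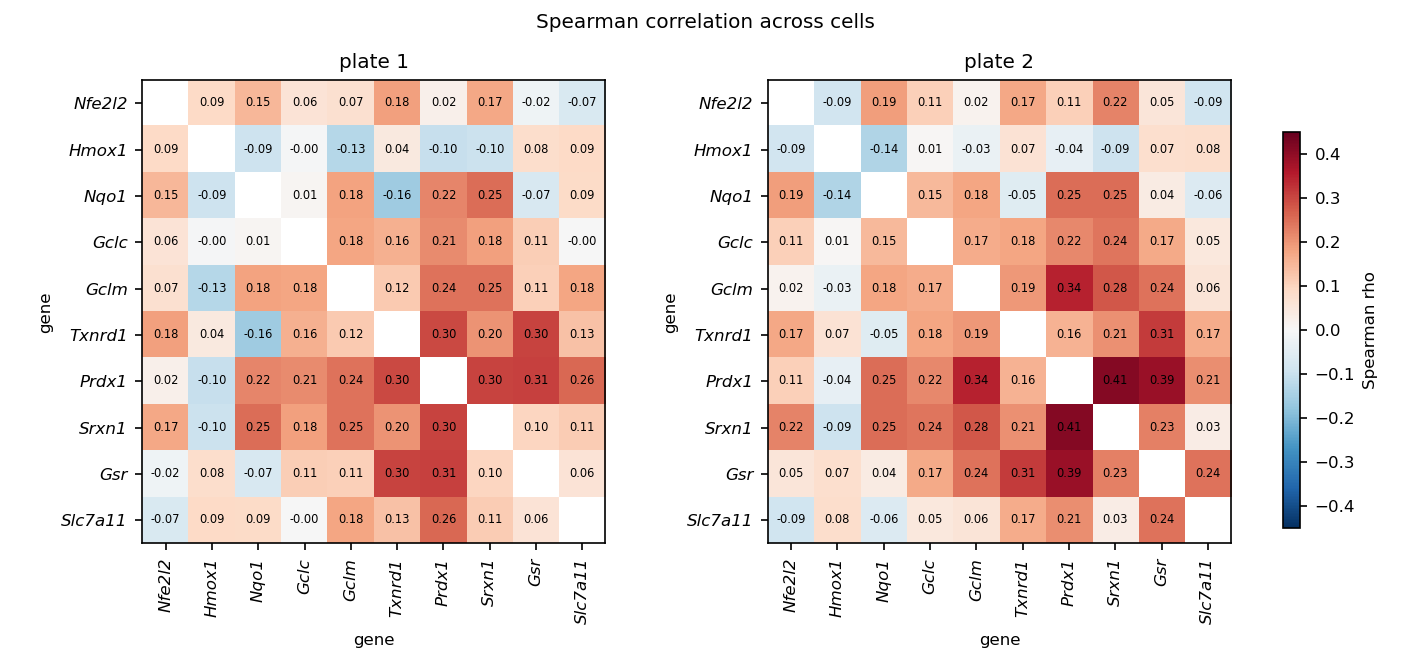
Spearman correlation across cells for each pair of the 10 genes, plate 1 on the left (383 cells) and plate 2 on the right (379 cells), with the value written in each square and red for positive, blue for negative. The block of Gclm, Txnrd1, Prdx1, Srxn1 and Gsr is red on both plates, and the row of Hmox1 is pale or blue.

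Genes most like the members were sought by their correlation across cells with the mean rank of the 10 genes, taking the lower of the plates' values. The 10 highest were Ran, Ybx1, Tuba1b, Ddx39, Banf1, Ftl1, Lsm4, Steap1, Odc1 and Slc25a39, from 0.54 and 0.54 for Ran to 0.51 and 0.48 for Slc25a39. Ftl1, a known NRF2 target, was the only gene of these 10 on the pathway lists read above. With Slc7a11 left out of the mean, Ftl1 came first at 0.53 and 0.54, closely followed by Ybx1 at 0.52 and 0.54. Tuba1b was then no longer among the 10. For Nfe2l2 alone the 3 nearest were the stress-induced factor gene Cebpb (0.35 and 0.32), Aldh3a1, an aldehyde dehydrogenase (0.24 and 0.28), and Tnfaip6 (0.24 and 0.25). For Hmox1 they were Ddit3, the stress factor CHOP (0.30 and 0.30), the collagen gene Col1a1 (0.31 and 0.27) and Ccnd2 (0.26 and 0.28).

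For Slc7a11 the 3 nearest genes were tubulins, and the first 2 are the genes its annotated transcript resembles. Tuba1c correlated with it at 0.55 on plate 1 and 0.61 on plate 2, Tuba1b at 0.48 and 0.42, and Tubb4b at 0.38 and 0.42. On each plate these values were higher than that of any pair of members. For Tubb4b on plate 2 the margin was narrow, at 0.416 against 0.413 for Prdx1 with Srxn1. Slc7a11 had 7.77 to 8.49 CPM against 131 and 132 CPM for Tuba1c. Its correlation with the mean rank of the ATF4 targets was 0.32 on each plate. Prdx1 and its pseudogene Gm7204 correlated at 0.42 and 0.52, and Gclm and Ppia at 0.25 and 0.14.

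**Figure D5:**
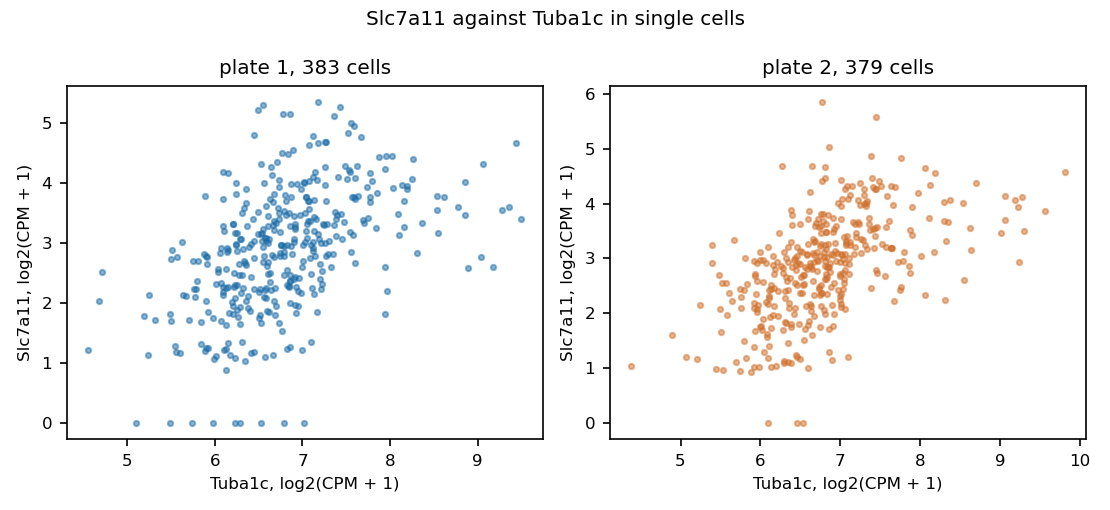
Slc7a11 against Tuba1c in single cells, both as log2(CPM + 1), with plate 1 (383 cells) in blue and plate 2 (379 cells) in orange. Cells with more Tuba1c counts have more Slc7a11 counts on both plates, at Spearman correlations of 0.55 and 0.61.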

How the data were processed

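Counts were used as deposited: whole, unnormalized numbers for each gene in each cell. Per the submitters' processing notes, STAR 2.7.11a, SAMtools, bedtools and HTSeq were used, with the builds GRCm39 and mm39. The role of each, the annotation, strand and molecular identifiers are not given in the sources used here. The deposited sorting record held fluorescence intensity in arbitrary units, per the file headers, which set the order of the gates. All sample columns were used.

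Cells needed 1000 genes, 0.1 of the plate's median total and at most 25% mitochondrial counts; 762 of 768 passed. No doublet caller was run. Counts were summed per plate and gate and tested by quasi-likelihood in edgeR 4.0.16 under R 4.3.3 (TMM, filterByExpr by gate, gate plus plate, 3 residual degrees of freedom). The contrast gave log2 per gate step, with Benjamini-Hochberg adjustment over 18430 genes at 0.05. Single-plate trends are untested and used log2 CPM with prior count 2. Alternatives covered the plate term, scaling, filters, thinning, DESeq2, limma and left-out sums or plates. A sum holds 94 to 96 cells, so its precision rests on their number and variation as well as on its total counts. The plate enters as a replicate block because every gate was sorted into both plates.

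The members and lists were chosen with earlier results of these data known. Named pathway genes were up to 3 per list and direction with the largest called trends, plus Keap1 and Bach1. Likeness covered 8578 named genes. On simulated data with 17838 genes tested for the gate trend, 4.30% of 93 genes changed by 0.1 log2 per step and 68.4% of 98 changed by 0.3 were recovered, with 4 unchanged genes called. The simulation gave all genes the same dispersion, held no plate effect and changed few genes, so these rates need not hold for the real data. The reference annotation (GENCODE M21, an older build) served for symbols, exon lengths, overlaps and transcript similarity (BLAST 2.17.0), and RefSeq promoters are on GRCm38.p6.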

Additional observations from a re-analysis of the deposited data

Results flagged for a closer look

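Trends of 3 genes pointed in opposite directions on the plates, which also carried different RFP sorts, and this difference was not tested. The Gclc trend over the Venus gates was 0.25 log2 per gate step on plate 1 and -0.01 on plate 2, a difference of 0.27. For Txnrd1 the values were 0.09 and -0.04, a difference of 0.12. For Gclm they were 0.06 and -0.01, a difference of 0.068. None of the 3 genes was called over both plates.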

How the results depend on the processing

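The plates were a replicate block in the model. Without this pairing 1683 genes were called instead of 2843, 1680 of them shared, 19 pathway genes instead of 33, and Srxn1 was lost (0.15, adjusted p = 0.205). The additive linear model called 1858 genes. In the 247 cells low in S and G2/M genes, an alternative chosen after seeing the data, 317 genes, 0 members and 6 pathway genes were called. Leaving out each sum in turn, also chosen after seeing the data, called 494 to 2457 genes, 1 to 3 members and 13 to 31 pathway genes, with the lowest of each without plate 1 gate 4. Library totals without TMM moved the share of calls that were rises from 44.0% to 57.8%. Signs reversed in the low-cycle cells for Nfe2l2 (-0.013), Hmox1 (0.0016) and Txnrd1 (-0.017), and for Slc1a4 (0.059) and Cth (0.12), which were called in all cells. Left-out plates or sums gave -0.014 to 0.25 for Gclc, -0.016 to 0.071 for Gclm, -0.037 to 0.087 for Txnrd1 and -0.046 to 0.011 for Bach1, and limma gave 0.00021 for Bach1. The cause was not tested, beyond the smaller number of cells or sums. Each gate rests on 2 plates, and depth bears most on Gclc and Slc7a11, with medians of 4 to 6 counts per cell.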
